A study of Danio rerio with 3 samples.

Results

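Zebrafish embryos that had received an siRNA against PGRP-SC were compared with uninjected embryos at 24 hours post-fertilization. The comparison holds every probe set of the array other than the array maker's controls, as the log2 ratio of the PGRP-SC siRNA signal over the uninjected signal. Of 15502 such probe sets, 9992 gave a ratio and 5510 did not, because their signals lay under a floor of 101.7 in both arrays. Of those with a ratio, 7698 are named for 1 gene. By the brightest probe set of each gene on average, 6565 of 8793 genes that have a probe set of their own gave a ratio. The study had 3 groups with 1 array each, all from whole embryos kept at 28 °C, and each array was made from the RNA of a pool of 400 embryos. One group was left uninjected, another received a control siRNA, and the third received the PGRP-SC siRNA, both siRNAs at 300 ng/µl in 1 nL given to the zygote. Artificially fertilized embryos of different parents were mixed before they were divided into the groups, and no strain or genotype is stated in the labels. By its own label the PGRP-SC sample was injected with zfPGRP-SC, and the word siRNA comes from the design text. The PGRP-SC siRNA and uninjected groups differ both in the targeting siRNA and in having been injected, and in this pair the effects of each cannot be told apart. The signal of the control siRNA array is therefore given wherever signals are listed, always in the order uninjected, control siRNA and PGRP-SC siRNA. The control siRNA ratios use the same uninjected array, so they are not independent of the ratios described here.

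Peptidoglycan recognition proteins bind peptidoglycan, a component of the bacterial cell wall, and take part in innate immunity; several of them cleave peptidoglycan or kill bacteria. An siRNA is a short double-stranded RNA that directs cleavage of a matching messenger RNA. At this stage the zebrafish embryo has formed most of its somites, its trunk muscle contracts, the tail bud is still adding tissue, primitive red cells circulate and neurons have begun to differentiate. The array has no probe set named for any of the 6 listed genes of the family, so the targeted transcript was not analysed here. With 1 array per group the spread between pools of embryos is unknown, and no p-value is given for any value below. A whole embryo pool cannot tell fewer cells of a type from less RNA per cell.

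A ratio of at least 2 is written here as called higher or called lower. By this measure, 556 probe sets were higher with PGRP-SC siRNA, 5.56% of those with a ratio, and 633 were lower, 6.34%. At a ratio of at least 4 the numbers were 57 and 61, and at a ratio of at least 8 they were 12 and 6. In both directions most calls were measured on both sides of the floor: 467 of the higher and 521 of the lower probe sets were above it in both arrays. For the other 89 higher and 112 lower probe sets the ratio is a bound. By gene, counted once through its brightest probe set on average, 378 of 6565 genes were called higher (5.76%) and 400 called lower (6.09%). Counts in the lists below are to be read beside these 2 shares, and a list near them does not stand apart from all genes. The median log2 ratio over all genes was 0.02. Where a gene name is followed by "at" and a value, that value is this log2 ratio, and signals are in arbitrary units. In the control siRNA array, 1.11% of genes were called higher than in the uninjected array and 0.774% called lower. For 95% of the probe sets with a ratio, the PGRP-SC siRNA and uninjected signals were within 2.60-fold of each other, and the control siRNA and uninjected signals within 1.72-fold.

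**Figure D1:**
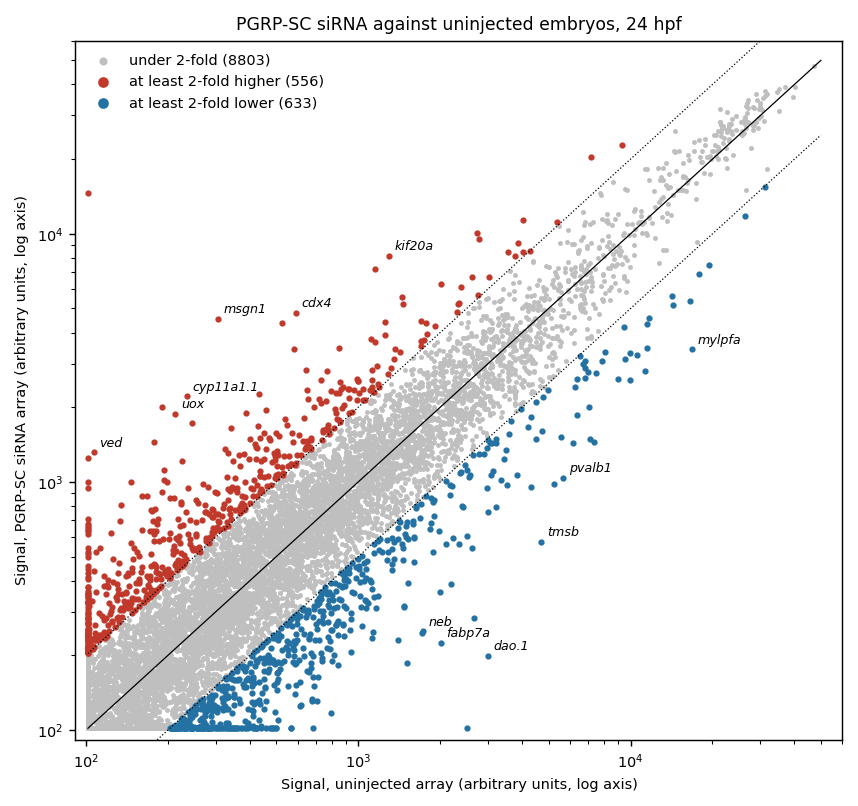
Signal of each probe set in the uninjected array (horizontal, log axis, arbitrary units) and the PGRP-SC siRNA array (vertical, log axis), with signals under the floor set to it; the solid line marks equal signals and the dotted lines a 2-fold difference. The 556 red points and 633 blue points are called higher and lower with PGRP-SC siRNA.

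Calls were found at every signal level. Among probe sets above the floor in both arrays, split by mean signal into 5 bins of equal size, the share called higher ran from 3.08% in the dimmest bin to 7.57% in the next. In the brightest bin 4.02% were higher and 4.66% lower. The standard deviation of the log2 ratio over probe sets was 0.57 in the dimmest and 0.60 in the brightest bin, and for control siRNA against uninjected it was 0.41 and 0.33 over the same probe sets. In the dimmest bin, with mean signals from 104 to 214, the floor limits how far apart the 2 signals can lie. Its shares and spread therefore cannot be compared with those of the brighter bins. Probe sets without a gene name were lower in 8.07% and higher in 4.94% of cases, against 5.79% and 5.62% of those named for 1 gene.

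**Figure D2:**
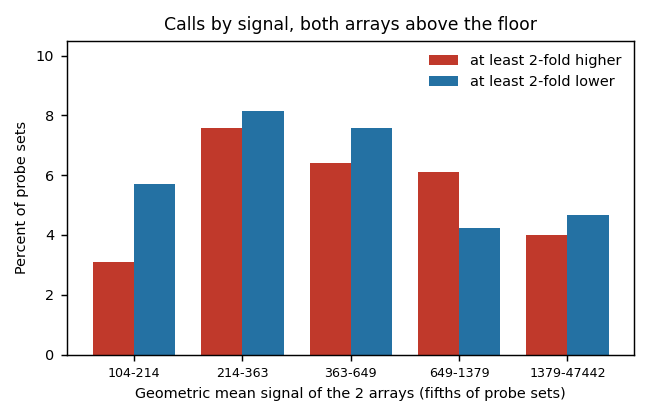
Percent of probe sets called higher (red) and lower (blue) with PGRP-SC siRNA, in 5 equal bins of the geometric mean signal of the 2 arrays (arbitrary units), for probe sets above the floor in both. The brightest bin had 4.02% higher and 4.66% lower.

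The genes furthest above the uninjected level included patterning factors, enzymes and stress genes. The transcription factor gene msgn1, which acts in the unsegmented paraxial mesoderm, had signals of 306, 1362 and 4546. The PGRP-SC siRNA signal was 14.9-fold that of the uninjected array, and the control siRNA signal lay between them. A second, dimmer msgn1 probe set had signals of 34.3, 115 and 68, near or under the floor. The homeobox repressor gene ved, which acts in ventral patterning, had signals of 107, 147 and 1318, so that only the PGRP-SC siRNA array was far above the floor. The caudal-type homeobox gene cdx4 had 589.6, 1496 and 4809.9, 8.16-fold higher than without injection. Others of this kind were the Iroquois homeobox gene irx7, with 147, 291 and 1001, and gata2a, a GATA factor of blood, endothelium and ventral ectoderm, with 134, 210.4 and 694. The retinoic acid degrading enzyme gene cyp26a1, which is expressed in the tail bud, had 388, 688 and 1896.

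Enzymes and carriers made up most of the rest of the 20 highest genes. The steroidogenic side-chain cleavage enzyme gene cyp11a1.1 had signals of 235, 536 and 2216, and the urate oxidase gene uox had 213, 1072 and 1882. In both, the control siRNA signal was also well above the uninjected one. The prolyl hydroxylase gene egln3, known in mammals as an oxygen-regulated target of hypoxia-inducible factor, had 178, 552 and 1449. The glycine decarboxylase gene gldc had 578, 1141 and 3437, the AMP deaminase gene ampd2b 224, 366 and 1214 and the phosphatase gene ppm1h 189.8, 739 and 1996. Each of these increased from array to array in the order of listing. By contrast, the carboxylesterase gene ces3, with 161, 127 and 879, and the gluconeogenic enzyme gene pck1, with 198, 189.7 and 1002, had control siRNA signals below the uninjected signal. Log2 ratios over uninjected of the remaining named genes were bnip4 at 2.66, ypel3 at 2.53, h1-10 at 2.39, ppp1r15a at 2.39 and mfsd1l at 2.39. Of these, bnip4 belongs to the BNIP3-like family of mitochondrial cell death and mitophagy proteins, h1-10 encodes a linker histone and ppp1r15a a phosphatase subunit of the integrated stress response. The mitotic kinesin gene kif20a, at 2.65, had a dimmer probe set with signals of 385, 291 and 416, which did not share this difference.

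Among probe sets under the floor without injection, the largest bounds included further genes of early patterning. The notochord homeobox gene noto had signals of 86.5, 183 and 655, at least 6.44-fold higher. The forkhead gene foxd5 had 83.3, 178 and 497 and was at least 4.89-fold higher. Sizzled, szl, a secreted Frizzled-related protein that inhibits chordin-degrading proteases in the BMP pathway, had 4.91, 1.7 and 615, above the floor with PGRP-SC siRNA only. The egg coat gene zp2.6 had 90.5, 213 and 708, the complement gene c7b 60.8, 314 and 942 and the tetraspanin-like gene tm4sf4 48.5, 51.2 and 677. The kinase gene mknk2b had 87.5, 135 and 667 by this probe set. Its 2 probe sets above the floor in both arrays had smaller log2 ratios, of 1.51 and 1.54. The acyltransferase gene mogat2, of triglyceride synthesis, had 98.8, 213 and 634, and the recombination gene swi5 53.5, 368 and 541. For copb2, a subunit of the coatomer of secretory vesicles, the probe set with 82.5, 532 and 1001 stood alone, since the brighter copb2 probe sets had 801 without injection and 920.5 with PGRP-SC siRNA and 1092 without injection and 1291 with PGRP-SC siRNA.

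The genes furthest below the uninjected level included genes of muscle, pigment cells, red cells and glia. The D-amino acid oxidase gene dao.1 had signals of 3001, 1645 and 199, a log2 ratio of -3.91. Radial glia marker fabp7a, which encodes a fatty acid binding protein of the brain, had 2013, 817 and 224, and the thymosin gene tmsb had 4705, 2299 and 575. Keratin gene krt1-19e had 1515, 743 and 186, and its second probe set had 441, 113 and 60.4, ending under the floor. In each of these genes the control siRNA signal lay between the other two. Muscle genes among the 20 lowest, as log2 ratios, were neb at -2.79, pvalb1 at -2.45, tnnt3b at -2.41, sh3bgr at -2.36, tnnt3a at -2.35, mylpfa at -2.29 and tnni2a.4 at -2.25, and mdh1ab, a malate dehydrogenase gene expressed in muscle and elsewhere, at -2.47. Pigment cell genes were represented by gch2, a GTP cyclohydrolase of yellow pigment cells, with 2197, 1012 and 388, and dct, dopachrome tautomerase of melanin synthesis, with 1124, 609 and 235. Red cell genes were slc4a1a, the band 3 anion exchanger, with 1394, 697 and 229.7, and alas2, of heme synthesis, with 940.2, 411 and 206. Also among them were the aquaporin gene aqp1a.1 at -2.23, the sodium pump gene atp1a1a.2 at -2.22, the catenin gene arvcfb at -2.30 and the neural membrane glycoprotein gene gpm6bb at -2.22.

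**Figure D3:**
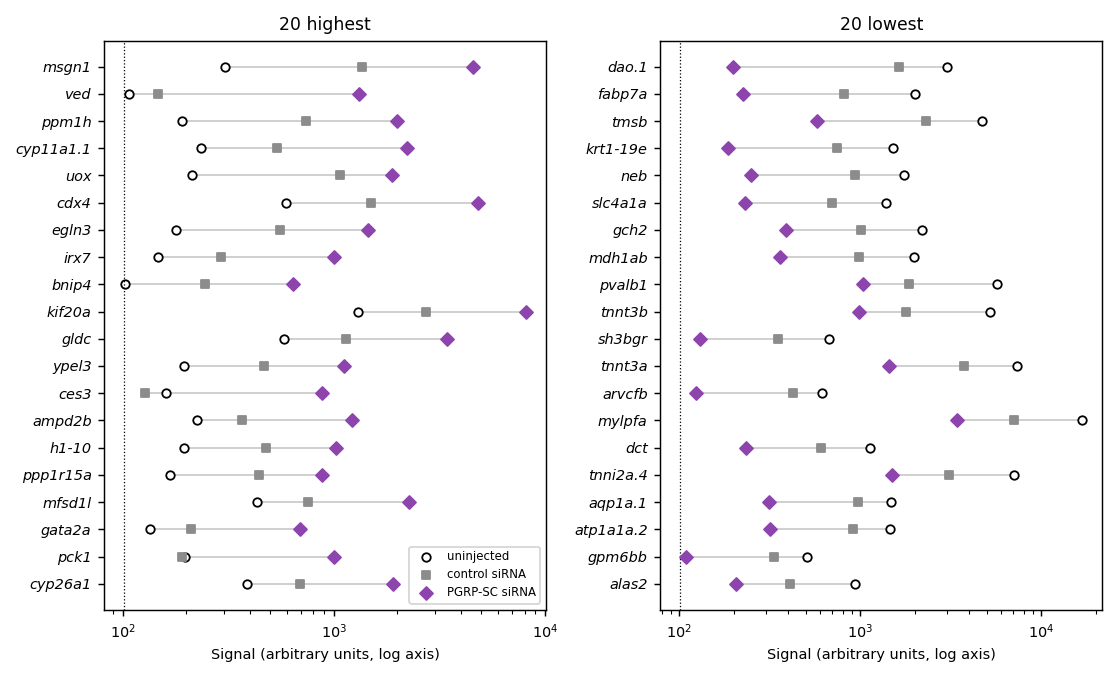
Signals (log axis, arbitrary units) of the 20 genes with the highest and the 20 with the lowest log2 ratio among named genes above the floor in both arrays; open circles are uninjected, grey squares control siRNA and purple diamonds PGRP-SC siRNA, 1 array each, and the dotted line is the floor at 101.7. The control siRNA signals of ces3 and pck1 sit below the uninjected ones, while that of msgn1 lies between the other arrays.

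Other genes ended under the floor with PGRP-SC siRNA. The mitochondrial ADP/ATP carrier gene slc25a4, of muscle and heart, had 679.7, 139 and 89.1, at least 6.69-fold lower, and its control siRNA signal was also far below the uninjected one. The acetylcholine receptor subunit gene chrne had 497, 252 and 74.5 and the mitochondrial uncoupling protein gene ucp3 485, 165 and 71.5. The cytoglobin gene cygb1, expressed in red cells, had 423, 257 and 95.2, the sugar transporter gene slc2a15b, of pigment cells, 421, 199 and 81.1, and the red cell spectrin gene sptb 416, 266 and 99.1. In keratin gene krt1-19d, with 410.2, 351 and 44.5, the control siRNA signal was near the uninjected one. The actin nucleation subunit gene arpc1b had 394, 179 and 79.6 and the heparan sulfatase gene sulf2b 382, 249.6 and 55.7.

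Most skeletal muscle genes with a ratio were called lower. Over 5 lists, 66 genes had a ratio, of which 41 were called lower and 1 was called higher, with a median log2 ratio of -1.30. With control siRNA, 7 of them were called lower than in uninjected embryos and the median was -0.35. Thick filament genes had a median of -1.31: the fast myosin light chain gene mylpfa had signals of 16812, 7018 and 3432, the myosin binding protein gene mybpc2b 788, 445 and 212 and the light chain gene mylz3 11464, 7461 and 3473. The fast myosin heavy chain gene myhz1.3, with 10545, 9387 and 3244, has near-identical neighbours that its probe set may share. The slow heavy chain gene smyhc1 had 5554, 5887 and 3679, a smaller difference, and myl10, a light chain of slow muscle, had 12268, 14433 and 12766, about level in the arrays.

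Thin filament genes had a median of -1.33. Nebulin, neb, had signals of 1735, 934 and 251, and the fast troponin T genes tnnt3a and tnnt3b had 7366, 3744 and 1442 in the former and 5217, 1777 and 979 in the latter. The fast troponin I gene tnni2a.4 and troponin C gene tnnc2.2 had log2 ratios of -2.25 and -1.35. Actin genes were within 2-fold: actc1b, a cardiac-type actin that embryonic muscle also uses, was at -0.32 by one probe set and -0.81 by another, actc1a at -0.13 and acta1a at -0.74. Tropomyosin genes went both ways, with the muscle gene tpma at -1.61 and tpm3, which is also used outside muscle, at 0.28. The array maker's own probe sets for muscle actin had 3′ signals of 30289, 28871 and 19546 and 5′ signals of 11179, 5912 and 2475. The ratio of 5′ to 3′ signal, commonly read as a sign of RNA or cRNA quality, was thus 0.369, 0.205 and 0.127 in the 3 arrays. For GAPDH the same ratio was 0.350, 0.347 and 0.498. The part of this in the muscle result was not tested.

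At the Z-disc and in filament assembly, 11 of 15 genes were called lower, with a median of -1.10. Myozenin myoz1b had signals of 801, 375 and 190.2 and the LIM-domain gene ldb3b 2514, 1439 and 605; alpha-actinin actn3b was at -1.62. The muscle ubiquitin ligase genes trim63a and trim55a, which act in sarcomere turnover, were at -1.83 and -1.41, and trim55b ended under the floor. Myosin chaperone genes were closer to their uninjected level, with unc45b at -0.92 and hsp90aa1.1 at -0.74. The small heat shock protein gene hspb1 was the 1 gene called higher, with 2770.2, 3533 and 9515. Calcium handling and excitation genes had the lowest median of any list, -1.48, with 10 of 11 called lower. Parvalbumins, the fast calcium buffers, were at -2.45 for pvalb1, -2.12 for pvalb3 and -1.79 for pvalb2. Signals of pvalb1 were 5666, 1859 and 1040, with control siRNA also far below uninjected. The calcium pump gene atp2a1 had 14355, 10586 and 5155, the calcium channel subunit gene cacng1a 734, 753 and 189.6 and calsequestrin casq2 1846, 1191 and 684. For cacng1a the control siRNA signal did not lie below the uninjected one.

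Energy enzymes of muscle split by gene: 7 of 17 were called lower, among them phosphoglycerate mutase pgam2 at -2.01, glycogen phosphorylase pygmb at -1.90, adenylate kinase ak1 at -1.77 and the creatine kinases ckmb at -1.63 and ckma at -1.40. The glycolytic genes aldoaa at 0.63, pgk1 at 0.43 and tpi1b at 0.21 lay above 0, and aldoab, the other aldolase A gene, was at -1.36. In the list of myogenic regulators 4 of 13 genes with a ratio were called higher and 0 called lower, with a median of 0.02. With control siRNA this median was 0.27. Myogenin, myog, had signals of 1272, 1952 and 1287 and myod1 154, 178 and 131, while myf5, which marks early myoblasts and presomitic mesoderm, had 149.7, 244 and 539.5. T-box gene tbx6 had 103, 178 and 315. In the heart muscle list 2 of 15 genes with a ratio were called higher and 1 called lower. Cardiac myosin genes were below 0, with myl7 at -1.85, cmlc1 at -0.94 and myh7 at -0.54, and cardiac transcription factor genes were above it, with nkx2.7 at 1.86, gata5 at 1.19, gata6 at 0.91 and hand2 at 0.57.

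Tail bud and paraxial mesoderm genes had the highest list median, 0.98, and of the 26 with a ratio 11 were called higher and 0 called lower. With control siRNA the median was 0.44, with 2 called higher. The T-box gene tbx16, needed for paraxial mesoderm formation, had signals of 65.7, 161 and 429.8, and tcf15, of early somites, had 204, 376 and 623. Segmentation genes included the cyclic repressor her7, at 18, 109 and 242, and the Notch ligand gene dlc, at 230.0, 429.5 and 508. In both the control siRNA signal was already above the uninjected one. The Wnt target gene sp5l had 148, 290.2 and 448 and the growth factor gene fgf8a 132, 175 and 470.2. Members near their uninjected level were the Notch ligand gene dld at -0.16, the retinoic acid synthesis gene aldh1a2 at -0.08 and the homeobox gene evx1 at 0.02. Against uninjected embryos, hoxd13a was the lowest of the list, with 134, 145 and 60.3.

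**Figure D4:**
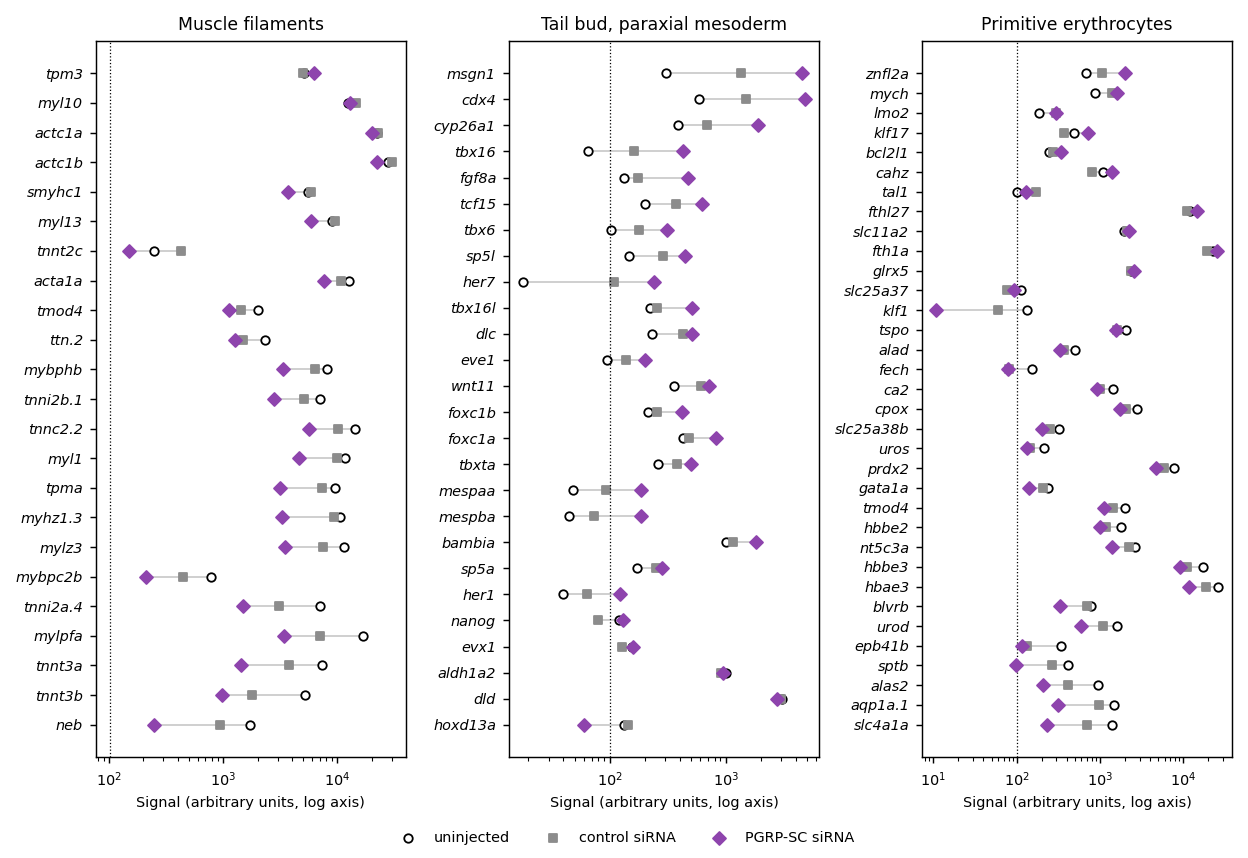
Signals (log axis, arbitrary units) of all genes with a ratio in the muscle filament, tail bud and paraxial mesoderm, and primitive erythrocyte lists, sorted by log2 ratio; open circles are uninjected, grey squares control siRNA and purple diamonds PGRP-SC siRNA, 1 array each, and the dotted line is the floor at 101.7. PGRP-SC siRNA signals lie left of uninjected for neb, 251 against 1735, and right of it for cdx4, 4809.9 against 589.6.

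Bone morphogenetic proteins (BMPs) are secreted ligands that set ventral and posterior fates through Smad proteins and are held back by secreted inhibitors such as chordin. Of 39 genes of this pathway and its ventral targets, 11 were called higher and 0 called lower, with a median of 0.66 (0.20 with control siRNA). The ventral homeobox gene vox had signals of 642, 700.0 and 2828, about level in the controls and 4.4-fold higher with PGRP-SC siRNA than without injection. The forkhead gene foxi1, of ventral ectoderm and otic placode, had 76.1, 85.3 and 355, at least 3.5-fold higher. Among inhibitors, follistatin fsta had 505, 772 and 1288 and the inhibitory Smad gene smad7 194, 222 and 434; the Nodal inhibitor gene lft1 had 57.5, 116 and 329. The receptor gene bmpr1aa was at 0.05 and the epidermal factor gene tp63 at 0.08. The lowest member was id4, a helix-loop-helix inhibitor, at -0.77.

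Other signalling pathways had smaller medians. In the FGF and MAP kinase list, 4 of 23 genes were called higher: the ligand gene fgf8a at 1.83, its feedback inhibitors il17rd at 1.67 and spry4 at 1.03, and the target etv5b, 2.29-fold higher. The feedback phosphatase gene dusp6 was at 0.58 by its brighter and 1.72 by its dimmer probe set, and the receptor gene fgfr3 was at -0.35. Wnt genes had a median of 0.46 (0.27 with control siRNA), with the receptors fzd7b at 1.02 and fzd7a at 0.86 and the ligand gene wnt11 with signals of 361, 616 and 721. The general Wnt target axin2 had 1483, 1587 and 1524, level in all arrays, and the kinase gene gsk3ba was at -0.71. In the Notch list 6 of 25 genes with a ratio were called higher and 2 called lower. Hairy-related repressors went both ways, with her6 at 1.31 and hey1 at 1.35 against her4.2, with 257, 225 and 85.1, and her2 at -0.76. The ligand gene dlb, of nascent neurons, was at -1.13 and the fringe gene lfng at -0.89. Hedgehog genes had a median of 0.11 (0.27 with control siRNA). They included foxa3 at 1.09, the ligand genes shhb at 0.72 and shha at -0.21, and gli3 at -0.86.

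Retinoic acid genes went both ways. The degrading enzyme genes differed in direction, cyp26a1 at 2.29 and cyp26b1 at -0.87, or at -1.12 by a dimmer probe set. The retinol oxidising enzyme gene rdh10b had signals of 147, 233 and 566 and the receptor gene rarab 334, 385 and 781. The serum retinol carrier gene rbp4 had 2960.0, 3978 and 942, highest with control siRNA and lowest with PGRP-SC siRNA, and the cellular binding protein gene crabp2a was at -1.06. Of 34 hox genes with a ratio, 1 was called higher and 4 called lower, with a median of -0.09. The lower ones were hoxb8a with 878, 708 and 266, hoxb5b with 319.6, 224 and 120.3, hoxb9a with 1029, 751 and 424 and hoxc13a with 387, 534 and 179. Hoxb7a, at 1.13, was the higher one, from an uninjected signal just above the floor. Medians of paralogue groups 1 to 4, 5 to 8 and 9 to 13 were -0.12, -0.16 and 0.05.

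**Figure D5:**
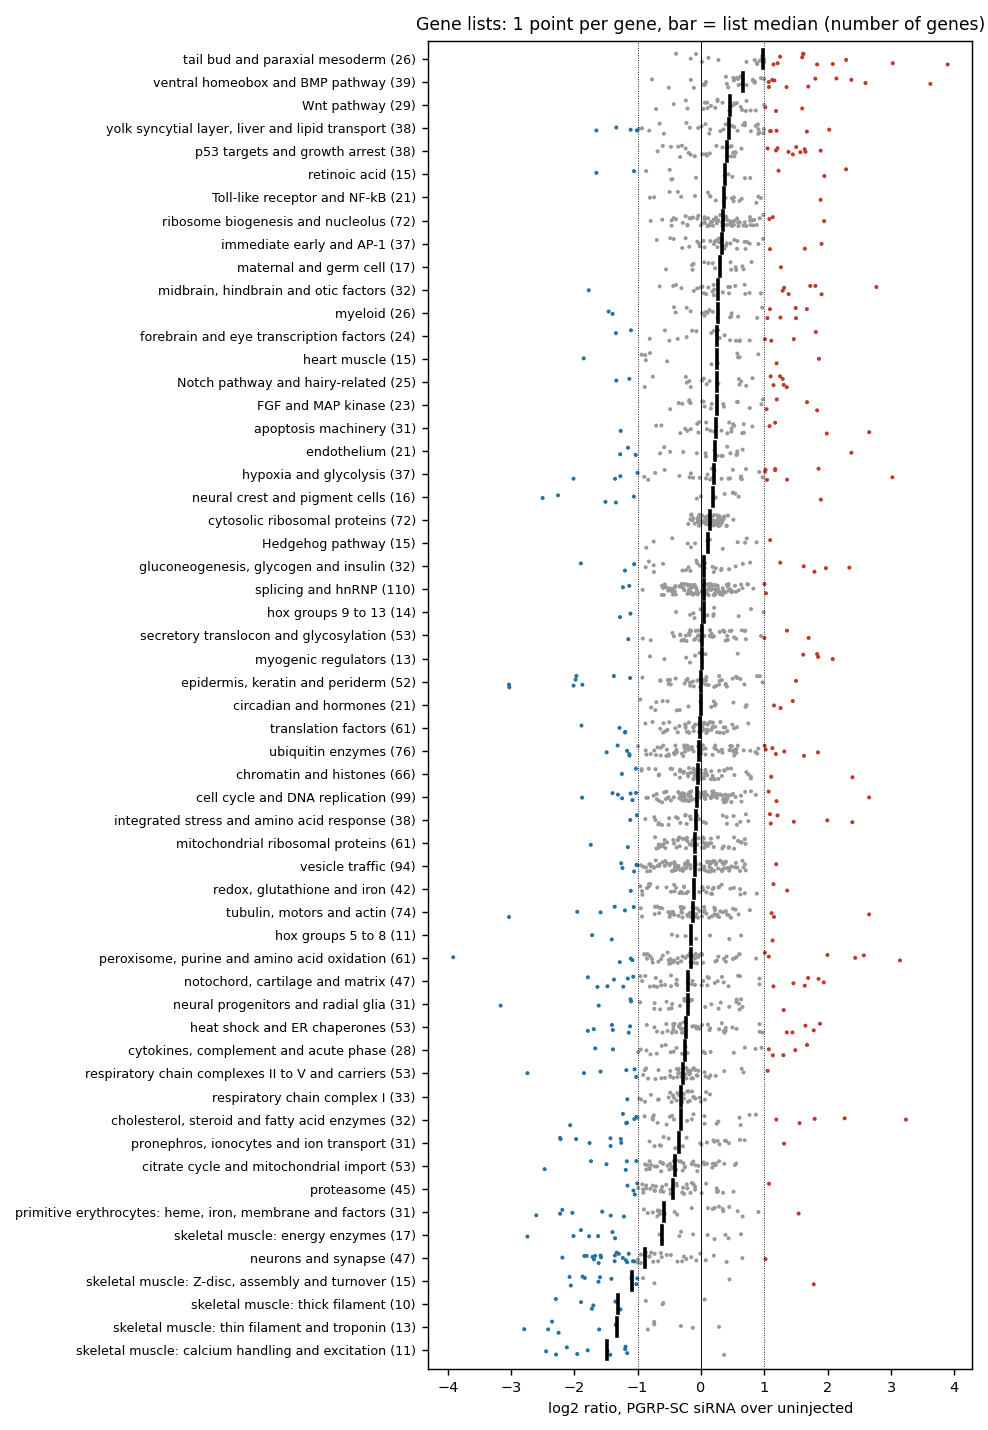
Log2 ratio of PGRP-SC siRNA over uninjected for every gene with a ratio (1 point per gene; red called higher, blue called lower) in each list with at least 10 such genes, with the list median as a black bar and the number of genes in brackets. Medians run from -1.48 for muscle calcium handling and excitation to 0.98 for tail bud and paraxial mesoderm.

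Within the nervous system, lists of patterning factors and of neuron genes had medians on opposite sides of 0. Of 47 genes of neurons and synapses, 19 were called lower and 1 was called higher, and 42 lay below 0, with a median of -0.89 (-0.24 with control siRNA). The membrane glycoprotein gene gpm6aa had signals of 1131, 848 and 248, the neuronal tubulin gene tubb5 2401, 1882 and 799.9 and the vesicle fusion gene snap25a 671, 503 and 205. Also lower were rtn1b at -1.84, islr2 at -1.67 and stmn2a at -1.62; the synaptotagmin gene syt1a, with 355, 176 and 67.2, and the splicing factor gene rbfox1, with 328, 204 and 86.7, ended under the floor. The proneural gene neurog1, which acts before differentiation, was at 0.08, and the motor neuron gene isl2a at 0.65. A vacuolar proton pump subunit, atp6v0cb, was the higher one at 1.02.

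Neural progenitor and radial glia genes had a median of -0.20, with fabp7a at -3.16 and slc1a2b at -1.62, the latter a glial glutamate transporter gene, and her6 at 1.31. The early neural factors sox19b at 0.65 and sox19a at 0.56 were not called, and the cadherin gene cdh2 was at 0.60 by one probe set and -0.45 by another. Forebrain and eye factors split: six3b at 1.81, otx1 at 1.11 and otx2a at 1.01 were higher, rx3 of the eye field had 98, 142 and 281, and dlx1a, of forebrain inhibitory neurons, was at -1.11. In the midbrain, hindbrain and otic list, 7 of 32 genes with a ratio were called higher and 1 called lower. The rhombomere gene egr2b had signals of 223, 409 and 834 and irx1b 656, 1163 and 2167. Among otic genes, otop1 and gata3 were at 1.38 and 1.31, while otomp, an otolith matrix gene, had 347, 209.6 and 90.4 and ended under the floor. The median of this list was 0.28 (0.19 with control siRNA) and that of the forebrain list 0.26 (0.05 with control siRNA).

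The neural crest specifiers snai1a at 1.89, tfap2a at 0.59, foxd3 at 0.51 and sox10 at 0.20 lay above 0, and of these snai1a, which also marks paraxial mesoderm, had signals of 399.7, 713 and 1484. The pigment genes gch2 at -2.50 and dct at -2.26 were called lower, and mitfa, the master factor of melanocytes, with 258, 168 and 83.8, and the melanosome gene pmelb, with 212, 132 and 27.3, ended under the floor. The crest transcript crestin had 1835, 2007 and 645, lower with PGRP-SC siRNA alone. Over the 16 genes with a ratio the median was 0.20. In the lens and retina list only 4 of 15 genes on the array had a ratio. The crystallin genes crybb1 had 672, 194 and 178 and cryba4 412, 144 and 161, with both injected arrays far below the uninjected one.

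Matrix genes went both ways, 6 called higher and 7 called lower of 47. Laminin lamb1a had signals of 1448, 2585 and 5550.2, and further genes called higher were the fibronectins fn1b at 1.69 and fn1a at 1.64 and the collagen-modifying hydroxylases p4ha1b at 1.86 and plod1a at 1.14. The laminin genes lamc1 at 0.92 and lama5 at 0.92 were not called, and laminin lama4 was at least 2.78-fold lower. Collagen I chain col1a1a had 6231, 3970.0 and 2404, and matn4 at -1.64 and dcn at -1.16 were also called lower. Periostin postnb was at -1.85 by one probe set and -0.96 by another. The link protein gene hapln1a had 1223, 1607 and 523, highest with control siRNA. Sulfatase gene sulf2a had 351, 359.7 and 102, with about equal signals in the uninjected and control siRNA arrays.

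Of 34 genes of primitive red cells with a ratio, 8 were called lower and 1 was called higher, 23 lay below 0 and 11 above it, with a median of -0.65 (-0.38 with control siRNA). The embryonic alpha globin gene hbae3 had signals of 26414, 18969 and 11748. The beta globin genes hbbe3 and hbbe2 had 17549, 11011 and 9274 in the former and 1818, 1197 and 999 in the latter. In each of them uninjected was highest and PGRP-SC siRNA lowest, though similar globin genes may share a probe set. The heme synthesis genes called lower were alas2 at -2.19 and urod at -1.43. Membrane and skeleton genes included slc4a1a at -2.60 and epb41b at -1.56 and sptb, which ended under the floor. By contrast lmo2, which acts in blood and vessel progenitors, had 186, 301 and 293. The zinc finger gene znfl2a, with 689, 1059.6 and 2006, was the higher one, and the ferritin gene fthl27 was at 0.28. Endothelial genes had a median of 0.21 over 21, with gata2a at 2.37 and flt4 at 0.56 above 0 and plvapb at -1.28, s1pr1 at -1.03 and kdrl at -0.49 below it.

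Immune genes are closest to the known role of the target family, and many were too dim to measure at this stage. In the myeloid list 26 of 41 genes on the array had a ratio, 6 of them called higher and 2 lower, with a median of 0.26. The factor genes cebpa and cebpb had signals of 1150.5, 1601 and 3665 in the former and 655, 566 and 1393 in the latter, although both genes are also active outside myeloid cells. The granule enzyme gene mpx of neutrophils had 96.4, 104 and 287, just under the floor without injection, and another mpx probe set had 111, 53.1 and 42.5, under the floor with PGRP-SC siRNA. Lysozyme lyz had 1051, 599 and 399. The lysosomal protease genes ctss2.1 at 1.25, ctsc at 1.05 and ctsz at -1.46 did not share a direction. Actin-bundling gene lcp1, present in all leukocytes, was at -0.43. Over the whole myeloid list, 20 of the 26 genes with a ratio lay above 0 and 6 below it.

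Toll-like receptors sense microbial products and signal through adaptor proteins and kinases to NF-kB. Of 65 such genes listed, 27 were on the array and 21 had a ratio, with 1 called higher, 0 called lower and a median of 0.36. Among all genes 5.76% were called higher and 6.09% lower. The higher one, irak1bp1, whose mouse counterpart binds the IRAK1 kinase, had signals of 182, 303 and 675. Below the 2-fold level were the inhibitors and adaptors tollip at 0.94, tab1 at 0.91 and nfkbib at 0.64, the NF-kB subunit gene nfkb2 at 0.87 and the kinases tbk1 at 0.61, map3k7 at -0.50 and mapk11 at -0.81. In the cytokine, complement and acute phase list 5 of 28 genes with a ratio were called higher and 2 called lower. The cyclooxygenase gene ptgs1 had 332, 467 and 932, while the fibrinogen chain genes fga and fgb had 803, 415 and 252 in the former and 812, 615 and 309.6 in the latter. For plasminogen, plg, the probe sets disagreed, with 319, 816 and 785 in one and 629.7, 757 and 505 in another. Complement genes of the list were within 2-fold, with c6.2 at -0.99, c3a.1 at -0.95 and cfi at 0.86, and the complement inhibitor gene serping1 was at 1.07. The complement gene c7b, outside the list, was at least 9.27-fold higher. Of 20 interferon response and antigen presentation genes on the array 6 had a ratio, with gbp1 at 0.82, irf5 at 0.46, adar at 0.43 and b2m at -0.23, none of them 2-fold apart. The other 2 had bounds under 2-fold.

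Of 38 genes of growth arrest and p53 response with a ratio, 10 were called higher and 0 called lower, with a median of 0.41 (-0.04 with control siRNA). The sestrin gene sesn3 had signals of 2722, 4956 and 10083, rps27l, a paralogue of a ribosomal protein, 1249.6, 1495 and 3921 and the ribonucleotide reductase subunit gene rrm2b 186, 422 and 577. Of the GADD45 stress sensors, gadd45bb had 143, 146 and 423 and gadd45ga 161, 273 and 456. The pleckstrin-domain gene phlda3 had 136, 71.3 and 354, lowest with control siRNA. The replication clamp gene pcna was at -0.33 and the p53 inhibitor gene mdm4 at -0.60. Apoptosis genes had a median of 0.24. Of 31 with a ratio, 4 were called higher and 1 called lower, beside 5.76% and 6.09% of all genes. Besides bnip4 at 2.66, the higher ones were the inhibitor-of-apoptosis antagonist diabloa, with 176, 419.9 and 697, the mitophagy receptor bnip3lb at 1.17 and the survival gene mcl1b at 1.08. Apaf1 was at 0.67, and the lower one was the mitochondrial flavoprotein gene aifm1, with 616, 473 and 256.

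Stress and folding genes went both ways. In the integrated stress list, 6 of 38 genes with a ratio were called higher and 2 called lower, with a median of -0.08. The phosphatase subunit gene ppp1r15a had signals of 168, 443 and 879, and its further probe sets above the floor had log2 ratios of at least 1.64. Amino acid carrier genes slc3a2b and slc3a2a were 3.98-fold and 2.15-fold higher, but slc38a2 was at -1.01 and the tRNA synthetase genes went both ways, nars1 at 1.47 and wars1 at -1.12. In the list of heat shock and endoplasmic reticulum chaperone genes, 5 of 53 with a ratio were called higher and 6 called lower. The shares over all genes were 5.76% and 6.09%. Of the 53, 33 lay below 0, and the median was -0.24. Of the endoplasmic reticulum chaperones, hspa5 (BiP) had 2010.2, 2091 and 6304 and hsp90b1 603, 421 and 1544. For calreticulin, calr, the brighter probe set was at -1.39 and the dimmer one at 0.44. Hspa5 and hsp90b1 had control siRNA signals close to or below the uninjected ones. Cytosolic members were hsf1, the heat shock factor, at 1.88, hsp70.3 at 1.44, hspb8 at -1.79 and hspa4a at -1.69. Redox genes had a median of -0.12, with txnipa at 1.14, gpx4a at 0.88 and the mitochondrial peroxiredoxin gene prdx3 at -1.11.

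Metabolic genes held some of the largest single differences. In the hypoxia and glycolysis list 8 of 37 genes with a ratio were called higher and 4 called lower. Enolase eno1a had signals of 2617, 3781 and 6708 and gpia, glucose phosphate isomerase, 2342, 3016 and 5275, and those called lower included the muscle isoforms pgam2 at -2.01 and aldoab at -1.36. Hexokinases hk2 at -0.90 and hk1 at -0.83 were below 0. Glucose storage genes included the glycogen-targeting phosphatase subunits ppp1r3cb, with 334, 363 and 1309, and ppp1r3ca, with 297, 514 and 914. The gluconeogenic gene fbp1b had 3549, 5158 and 8449. The insulin receptor substrate gene irs2a had 81.2, 86.3 and 352, at least 3.46-fold higher, while insulin itself, ins, had 234, 238 and 70.8 and ended under the floor. In the list of cholesterol, steroid and fatty acid enzymes 5 of 32 genes with a ratio were called higher and 6 called lower, with a median of -0.32. Besides cyp11a1.1 at 3.24, the higher ones included the next enzyme of the steroid pathway, hsd3b2, which had 109, 82.1 and 523. The vitamin D hydroxylase gene cyp24a1 had 75.4, 80.6 and 353, and cyp1a, which responds to aryl hydrocarbons, had 459.5, 698 and 1351.

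Mitochondrial fatty acid oxidation genes of that list called lower were hadhaa at -1.23, hadhb at -1.18 and echs1 at -1.17. Other genes of this oxidation were named after their values were seen. Of these, acadvl at -0.89, acadm at -0.75 and acaa2 at -0.70 also lay below 0, and acads, at 0.61, lay above it. The dehydrogenase gene hsd17b10, with signals of 496, 274 and 119, was the lowest member of the list of cholesterol, steroid and fatty acid enzymes. In the list of peroxisome, purine and amino acid oxidation genes, 6 of 61 with a ratio were called higher and 4 called lower. Over all genes the shares were 5.76% and 6.09%. Of the 61, 40 lay below 0, and the median was -0.16. Amino acid and purine genes were led by uox at 3.14, gldc at 2.57 and ampd2b at 2.44 upwards and dao.1 at -3.91 downwards. The partner of gldc in the glycine cleavage system, gcshb, had 101, 95.7 and 406, at least 3.99-fold higher. The first enzyme of purine synthesis, ppat, was at 1.07, and glutamate dehydrogenase glud1b at -1.08. Among yolk syncytial layer, liver and lipid transport genes, 5 of 38 genes with a ratio were called higher and 4 called lower, with a median of 0.44. The cathepsin gene ctsll had 848, 961 and 3449.6, and the endoderm factors gata5 at 1.19, foxa3 at 1.09 and hhex at 0.99 were higher or near 2-fold higher. Transferrin tfa and the protease inhibitor gene serpina1l were at 0.69 and 0.92. Apolipoproteins went the other way in apoea at -1.34, apoba at -1.11 and apoa4a at -0.82.

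Among ion transport genes of the kidney tubule and ionocytes, 8 of 31 with a ratio were called lower and 1 was called higher, with a median of -0.35 (-0.06 with control siRNA). The sodium pump alpha subunit gene atp1a1a.2 had signals of 1467, 906 and 316 and its neighbour atp1a1a.3 431, 488 and 109.7. The beta subunit gene atp1b1b had 1178, 761 and 348. Water channel genes aqp8a.1 and aqp3a were at -1.43 and -1.26, and the sodium-chloride cotransporter slc12a3 was at least 2.69-fold lower and under the floor with PGRP-SC siRNA. Proton pump subunits did not share this, with atp6v1ba at 0.39, atp6v1e1b at 0.29 and atp6v1h at 0.26. The kidney factor gene pax2a was at 0.69. Epidermal genes had a median of 0.0019, with 8 of 52 called lower and 1 called higher. The keratins krt1-19e, krt91 and krt18b were at -3.03, -1.98 and -1.87, and icn2, which encodes a calcium-binding protein of the S100 type, had 6799, 4595 and 2619. Other keratins were above 0, with krt18a.1 at 0.97 and krt8 at 0.58. Of 12 genes with krt symbols and a ratio, 6 lay above 0 and 6 below it. Annexin anxa1a had 4039, 6771 and 11417. The secretory cell gene agr2 had 1028, 315 and 263.

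Of 33 maternal and germ cell genes on the array 17 had a ratio, and their median was 0.30. The pluripotency factor pou5f3 had signals of 138, 201 and 332 and was the one called higher, and the germ plasm gene dnd1 had 314, 206 and 545. In the hatching gland list 1 of 9 genes with a ratio was called higher and 1 called lower, and the general secretory gene xbp1 was at -0.04. Cell cycle and replication genes were near 0, with a median of -0.07 over 99. Of these, 3 were called higher and 7 called lower, beside 5.76% and 6.09% of all genes. The lower ones included genes of nucleotide supply and DNA polymerase: dut, a dUTPase, had 5554, 3344 and 1512 and ribonucleotide reductase rrm1 4313, 2969 and 1818, with pold2 at -1.40 and prim1 at -1.31. The proliferation marker mki67 was at -1.11 and the mitotic kinesin kif11 at 0.55. Chromatin genes had a median of -0.05, from hmgb1b at -1.25 to h1-10 at 2.39.

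Core machinery showed many small differences and few large ones. All 72 cytosolic ribosomal protein genes with a ratio were within 2-fold, from -0.20 for rpl27a to 0.51 for rpl7l1, with a median of 0.14. Ribosome assembly genes had a median of 0.35, 56 of 72 above 0, against a median of 0.22 with control siRNA. Of the 72, 3 were called higher, beside 5.76% of all genes. They were the helicase ddx52, with signals of 185, 476 and 710.2, mphosph10 and imp4, the latter 2 at 1.13 and 1.08. A dimmer imp4 probe set was at 0.18. The nucleolar helicase ddx21 had 2985, 5597 and 5495, about equal in both injected arrays. Translation factors had a median of -0.01, with eef2k at -1.89 and pabpc4 at -1.29 at the lower end, and splicing genes a median of 0.05 over 110. Proteasome genes had a median of -0.45 (-0.33 with control siRNA), 36 of 45 below 0, and the 4 called lower were the regulatory particle subunits psmd4a at -1.16, psmd11b at -1.07, psmd8 at -1.05 and psmd6 at -1.01. Over all genes 6.09% were called lower. For psmd12, not called, the brighter probe set was at -0.76 and the dimmer one at -1.28. The immunoproteasome subunit psmb10 had 81.7, 85.5 and 214, at least 2.11-fold higher.

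In the respiratory chain 74 of 86 genes lay below 0, with a median of -0.30 (-0.18 with control siRNA), 7 called lower and 1 higher. Over all genes 6.09% were called lower and 5.76% higher. The copper chaperone gene cox17 had signals of 3826, 2415 and 1063, the ATP synthase gene atp5mc1 9964, 5429 and 3319 and the complex I gene ndufc2 6690.0, 4467 and 2986. Voltage-dependent anion channels differed, vdac1 at 0.67 and vdac3 at -1.05. Citrate cycle and import genes had a median of -0.41 over 53: the prohibitins phb2b at -1.74, phb2a at -1.49 and phb at -1.19 were lower, and citrate synthase cs was at -0.88. Mitochondrial ribosomal proteins were nearer to 0, at -0.09 over 61, with mrpl28 at -1.74 the lowest.

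Among ubiquitin enzymes 7 of 76 genes with a ratio were called higher and 5 called lower, with a median of -0.03. Over all genes 5.76% were called higher and 6.09% lower. The Smad ubiquitin ligase genes smurf1 and smurf2 had signals of 116, 179 and 418 in the former and 117, 169.9 and 235 in the latter, and the ubiquitin hydrolase gene uchl3 had 662, 477 and 236. Cytoskeletal genes had a median of -0.13: after tmsb at -3.03, an actin-monomer binding protein, tubb5 at -1.59 and capza1b at -1.06 were lower and tuba8l2 at 1.15 was higher. Vesicle traffic and secretory pathway lists had medians of -0.10 and 0.02. In them the coat gene sec23b was at 1.19, the sorting nexin gene snx5 at -1.26, the mannosyltransferase gene alg2 at 1.70 and the translocon gene sec61a1b at 1.36. Of the circadian and hormone genes 3 of 21 were called higher, the glucocorticoid-responsive tsc22d3 at 1.45 and the cryptochromes cry4 at 1.26 and cry2 at 1.15. The immediate early list had a median of 0.33, with klf11a at 1.64, fosab with 78.1, 37.8 and 200.4 and atf3 at -0.06.

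Families formed by shared symbol letters, which do not rest on the hand-made lists, placed proteasome genes at one end. Of 96 families with at least 8 genes, the lowest medians were -0.73 for psmc, the proteasome ATPases with psmc3ip, which shares only the letters, -0.54 for the catalytic ring (psmb), -0.50 for the psmd subunits, -0.47 for collagens and -0.44 for the prolyl isomerases fkbp. None of the psmc genes was 2-fold apart. With control siRNA the medians of psmc, psmb and psmd were -0.37, -0.55 and -0.34, and that of collagens was 0.28, on the other side of 0. The highest medians were 0.56 for the histone demethylases kdm, 0.55 for cytochromes P450, 0.48 for the intraflagellar transport genes ift, 0.43 for the PHD finger genes phf and 0.41 for the Krüppel-like factors klf. Cytochromes P450 held 6 of 16 called higher, whereas none of the 10 kdm genes was 2-fold apart by its brightest probe set. A dimmer kdm4b probe set was at 1.32, beside 0.65 for the brighter one.

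Several probe sets of 1 gene give a check within these arrays, though they share the same RNA pools. Of 728 genes with at least 2 probe sets above the floor in both arrays, 506 had all of them on the same side of 0. The median gap between the highest and lowest log2 ratio of a gene was 0.34. In 111 genes some probe set was at least 2-fold apart, and in 98 of these all probe sets shared its direction. All probe sets were called higher in 7 genes and called lower in 15, and 0 genes had probe sets that reached 2-fold in opposite directions. With 3 or more probe sets, the sterol sensor gene insig1 had log2 ratios from 0.87 to 2.34 and ppp1r15a from 1.64 to 2.39. On the lower side, hapln1a ran from -1.23 to -0.75, the leucine-rich repeat gene lrrn1 from -1.84 to -0.58 and caveolin cav1 from -1.36 to -0.64. Another hapln1a probe set, with signals of 35.8, 52.2 and 135, went the other way. Among genes with 3 or more such probe sets, the widest gaps were in the folate enzyme gene fpgs, from 0.51 to 2.60, and the scaffold gene mpp1, from -0.21 to 1.86.

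Of further genes named above without their other probe sets, a dimmer probe set above the floor in both arrays lay on the other side of the 2-fold call or of 0 in 7. These probe sets gave bmpr1aa at -0.41, dlc at 0.47, fzd7b at 0.78, her4.2 at -0.33, hoxb9a at -0.28, mki67 at -0.53 and s1pr1 at -0.98. Dimmer probe sets of fsta, otx1, tbx16 and hoxb7a started under the floor and gave bounds under 2-fold.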

How the data were processed

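Total RNA of 3 pools of embryos was labelled with biotin and hybridised to a 1-colour Affymetrix array, per the labels' protocols. The authors deposited a linear intensity for each probe set on each array, made with GCOS 1.4 per the submitters' processing notes. Software settings and detection calls were not used here. Of 15617 probe sets, 115 were the maker's controls and were kept apart. The platform annotation named 1 gene for 10795 of the remaining 15502, several for 135 and none for 4572.

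Signals were scaled to a common mean after removing 2% from each tail, multiplying the uninjected array by 1.00, the control siRNA array by 0.999 and the PGRP-SC siRNA array by 1.00. Values under the pooled 40th percentile, 101.7, were set to it, and a ratio with 1 side there is a bound. The floor covered 39.7%, 39.9% and 40.4% of the probe sets. Each gene was read from its brightest probe set on average. No test was run, because each group had 1 array, and no interval can be given. Python 3.11.15 with numpy 2.4.6 and pandas 2.3.3 was used, with limma 3.58.1 in R 4.3.3 for cyclic loess. The counting was tested on simulated data.

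Genes were named by rule: among genes above the floor in both arrays, the 20 highest and 20 lowest, the 10 largest bounds each way, up to 8 members each way of the 63 gene lists, the extreme symbol families, and the genes with several probe sets that had the largest medians or widest gaps. Systematic and clone names were passed over. Members and lists were chosen with earlier results of these data known. The alternatives were deposited signals, median scaling, quantile normalization, cyclic loess, other floors, a pseudocount of 100, and 1 value or the mean over probe sets per gene.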

Additional observations from a re-analysis of the deposited data

Results flagged for a closer look

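Outside the main measurement, the array carries 46 maker's control probe sets with its zebrafish prefix, other than those for actin and GAPDH. Of these, 3 were above the floor in any array. Some of the 46 are named for fluorescent reporters such as EGFP and DsRed. What the 3 detect was not examined, and it need not be an embryo transcript. One of the 3 had signals of 15054 (uninjected), 125 (control siRNA) and 26725 (PGRP-SC siRNA), so the PGRP-SC siRNA signal was 214 times that with control siRNA. Another had 413, 7.09 and 778 in the same order, at least 7.65 times the control siRNA level, whose signal was under the floor. Both were low in the control siRNA array alone, and the cause was not tested. The remaining one had 25213, 25396 and 30296.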

How the results depend on the processing

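With 1 array per group the spread between pools is unknown, and no replicate could be left out. No paired analysis was possible because each group has 1 array and no test was run. The main counts were 556 probe sets at least 2-fold higher and 633 lower. They depended on how low signals were treated. With the floor at the 20th percentile 828 were higher and 1070 lower, raising it to the 60th percentile gave 317 and 317, with no floor 1738 and 2107, and with a pseudocount of 100, which narrows the ratios of dim probe sets, 329 and 377. Counted per named gene they were 378 and 400, since fewer items were counted. Under deposited signals, median scaling, quantile normalization and cyclic loess they ran from 521 to 607 higher and from 577 to 665 lower. Of 330 named genes at least 2-fold apart, 241 remained so with the pseudocount and 235 of 304 with the higher floor. Under the scaling alternatives and the mean over probe sets, from 313 to 329 remained so. The 329 came from deposited signals, which the main scaling barely changed. All 330 remained so with the lower floor and with no floor, which can only keep or widen a ratio and could not have lost a call. None of the genes changed direction. Another floor, no floor or a pseudocount cannot reverse a ratio of the same 2 signals, so those settings could not have shown a change. Every alternative used the same arrays. Some list medians changed sign, and the cause was not tested. Main medians not given above were 0.25 for heart muscle, 0.37 for retinoic acid and -0.25 for cytokines. Those of gluconeogenesis and of circadian and hormone genes were 0.05 and -0.00102. Myogenic regulators were at -0.0440 with quantile normalization, -0.0568 with the lower floor, -0.0583 with no floor and -0.0455 with the pseudocount. Heart muscle was at -0.0369, -0.18, -0.0738 and -0.0198 with the lower floor, the higher floor, no floor and the pseudocount. Retinoic acid was at -0.0103 with the lower floor and with no floor, and -0.00351 with the pseudocount. Hox groups 9 to 13 were at -0.00680 with the lower floor and with no floor, -0.12 with the higher floor and -0.00529 with the pseudocount. With the higher floor, cytokines were at 0.0744 and cholesterol, steroid and fatty acid enzymes at 0.0542. Gluconeogenesis was at -0.0662 with no floor and -0.0303 with the pseudocount. Epidermis was at -0.0150 with the higher floor, -0.0491 with cyclic loess and -0.0640 with quantile normalization. With median scaling, translation factors were at 0.0308 and ubiquitin enzymes at 0.00767. Splicing was at -0.00847 with quantile normalization and the secretory translocon at -0.00301 with cyclic loess. Circadian and hormone genes were at 0.0371 with median scaling, 0.0395 with quantile normalization, 0.13 with the lower floor, 0.23 with the higher floor, 0.0890 with no floor, 0.0369 with the pseudocount and 0.0672 with the mean over probe sets.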

Other observations

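Probe sets that the annotation does not tie to 1 gene, or with a clone name, were outside the rule for naming genes, and those given here were chosen after their values were seen. The largest ratio of all belonged to an unnamed probe set, with signals of 22.2 (uninjected), 3246 (control siRNA) and 14668 (PGRP-SC siRNA), at least 144-fold higher than without injection. The control siRNA signal was thus also far above the uninjected one. Another unnamed probe set had 49.2, 264 and 1251 in the same order. The gene si:ch211-152c2.3 had 527, 713 and 4356, with most of its difference on the side of PGRP-SC siRNA.

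In the other direction, the gene si:ch1073-340i21.3 had signals of 2514 without injection and 1691 with control siRNA, against 75.4 after PGRP-SC siRNA, which is under the floor. An unnamed probe set with 2671, 530.2 and 282 was lower in both injected arrays. A further one had 568, 94.2 and 75.8, under the floor with either siRNA.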
